A study of Homo sapiens with 15 samples.

Results

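In 786O cells depleted of BMAL1, the sites occupied by BMAL1 were set against the sites occupied by HIF2α, and the sites called for both proteins are described here. Members were every peak of the shBMAL1 BMAL1 list that shared at least 1 bp with a peak of the shBMAL1 HIF2α list. The BMAL1 list held 768 peaks and the HIF2α list held 1089, together 1857 of the 4873 peaks of the series, and 98 sites were shared. Each shared site was made of exactly 1 BMAL1 peak and 1 HIF2α peak, which left 670 BMAL1-only and 991 HIF2α-only peaks.

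Peaks came from CUT&RUN, an assay in which an antibody guides a nuclease to a chromatin protein so that the DNA beneath it is cut free and sequenced. 786O (786-O in the labels) is an established renal cell adenocarcinoma line, labelled WT in genotype, and all groups carried a lentiviral PLKO.1 shRNA vector under puromycin selection, with a control sequence (shControl) or with an shRNA against BMAL1 (shBMAL1). The deposited lists pool 2 libraries for BMAL1 in shBMAL1 cells and 3 libraries for HIF2α in shBMAL1 cells and for each protein in shControl cells, so no value here carries a spread between libraries and no test between conditions could be made. The IgG libraries, 2 per condition, were not analysed here, and because the lists hold no RNA or protein measure, neither the extent of the depletion nor the identity of the cells was checked here. The labels name a single shRNA against BMAL1.

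BMAL1 is a basic helix-loop-helix PAS protein of the circadian clock. It pairs with CLOCK and binds the E-box, a short palindrome found at the promoters of clock genes such as PER1. HIF2α, encoded by EPAS1, belongs to the same family, pairs with ARNT and binds hypoxia response elements (HREs), whose core differs from the E-box by little. HIF2α accumulates in renal carcinoma cells that lack the VHL ubiquitin ligase, and its targets include genes of glucose metabolism and angiogenesis.

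The shared sites fell into sequence types that can be seen directly in the reference (GRCh37, plus strand, coordinates as in hg19). The first set shows 200-bp windows centred on the HIF2α summits of well-ranked shared sites that hold an HRE core, a promoter near TMEM141, the promoter of TMEM18 and the site with the smallest p of the HIF2α list, which lies between genes on the Y chromosome with PCDH11Y as the nearest start. Capitals mark the HRE core (ACGTG or GCGTG) on either strand. The PCDH11Y site also matched mitochondrial DNA (63 bp at 100% identity), so it belongs to the third set as well. Its matched stretch is not marked here.
TMEM141 chr9:139685335-139685534: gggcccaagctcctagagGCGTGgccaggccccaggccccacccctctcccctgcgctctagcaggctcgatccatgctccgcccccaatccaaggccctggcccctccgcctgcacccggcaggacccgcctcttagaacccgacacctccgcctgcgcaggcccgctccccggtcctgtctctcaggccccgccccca
TMEM18 chr2:676778-676977: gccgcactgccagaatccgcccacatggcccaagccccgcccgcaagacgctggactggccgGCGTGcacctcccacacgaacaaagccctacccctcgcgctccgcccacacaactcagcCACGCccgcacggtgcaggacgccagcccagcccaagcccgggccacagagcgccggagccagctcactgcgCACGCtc
PCDH11Y chrY:4212803-4213002: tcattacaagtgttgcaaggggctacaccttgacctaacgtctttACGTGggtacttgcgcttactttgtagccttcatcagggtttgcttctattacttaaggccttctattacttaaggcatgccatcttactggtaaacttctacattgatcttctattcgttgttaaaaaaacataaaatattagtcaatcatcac

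The second set shows shared sites with an E-box (CACGTG), which also contains the HRE core. Capitals mark both motifs. These windows are also centred on HIF2α summits, and at PER1 the BMAL1 summit lay 187 bp away, outside the window. PER1 is the clock gene itself, and TRIO, a guanine nucleotide exchange factor, carried a shared site in an intron.
PER1 chr17:8059941-8060140: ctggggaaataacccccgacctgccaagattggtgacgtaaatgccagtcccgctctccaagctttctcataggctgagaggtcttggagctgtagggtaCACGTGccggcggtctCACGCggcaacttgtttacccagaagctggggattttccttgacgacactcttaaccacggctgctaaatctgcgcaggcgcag
TRIO chr5:14264801-14265000: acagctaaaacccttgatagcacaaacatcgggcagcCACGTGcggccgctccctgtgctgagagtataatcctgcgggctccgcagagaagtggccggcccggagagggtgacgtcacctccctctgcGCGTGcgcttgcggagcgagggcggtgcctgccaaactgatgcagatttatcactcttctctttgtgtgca

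The third set shows shared sites whose sequence matched mitochondrial DNA, each followed by the mitochondrial stretch it matched. Capitals mark the matched part. Over the match, the site nearest to FSTL5 was 97.8% identical to the mitochondrial genome across 90 bp and the site inside FAM168A was 97.7% identical across 86 bp.
FSTL5 site chr4:163342604-163342764: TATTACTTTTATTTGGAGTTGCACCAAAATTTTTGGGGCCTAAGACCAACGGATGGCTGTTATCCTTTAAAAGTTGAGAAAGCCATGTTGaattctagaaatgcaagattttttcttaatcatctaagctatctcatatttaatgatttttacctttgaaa
mitochondrial genome chrM:12250-12339, minus strand: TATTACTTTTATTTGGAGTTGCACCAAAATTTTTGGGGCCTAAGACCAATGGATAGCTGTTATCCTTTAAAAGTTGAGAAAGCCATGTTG
FAM168A site chr11:73221783-73221949: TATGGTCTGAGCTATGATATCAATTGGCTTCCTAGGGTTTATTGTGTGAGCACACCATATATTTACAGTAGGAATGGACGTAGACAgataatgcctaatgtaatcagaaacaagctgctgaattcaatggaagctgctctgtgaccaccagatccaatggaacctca
mitochondrial genome chrM:6719-6804, plus strand: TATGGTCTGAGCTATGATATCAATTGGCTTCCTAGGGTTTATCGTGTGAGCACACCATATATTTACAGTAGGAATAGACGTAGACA

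Shared sites were a minority of either list. They made up 12.8% of the BMAL1 peaks (95% Wilson interval 10.6 to 15.3) and 9.0% of the HIF2α peaks (7.44 to 10.8). In shControl cells the same overlap took in 335 BMAL1 peaks, or 18.5% of that list, and 336 HIF2α peaks, or 27.9%. All intervals over peaks cover counting error only, and because a BMAL1 library of shBMAL1 cells is missing from the pool, the number of libraries cannot be told apart from the shRNA in a comparison of these shares.

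Within each list peaks were ranked by the p-value that MACS2 gave them, and the rank was turned into a percentile in which 100 is the smallest p (peaks with the same p share their mean rank). The shared peaks had a median percentile of 50.4 in the BMAL1 list (95% interval 39.5 to 63.2) and 60.3 in the HIF2α list (45.2 to 72.5). Ranked by fold instead, the medians were 34.9 (24.3 to 42.1) and 27.2 (11.6 to 41.0), so the shared sites stood lower in both lists by fold than by p. The spread by p was uneven. Of the strongest quintile of the HIF2α list, 32 of 218 peaks were shared (14.7%, 10.6 to 19.99), against 12 of 214 (5.61%, 3.24 to 9.54) in the middle quintile and 22 of 219 (10.0%, 6.73 to 14.7) in the weakest. In the BMAL1 list the same shares were 24 of 154 (15.6%) in the weakest quintile, 17 of 154 (11.0%) in the middle and 22 of 154 (14.3%) in the strongest.

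**Figure D1:**
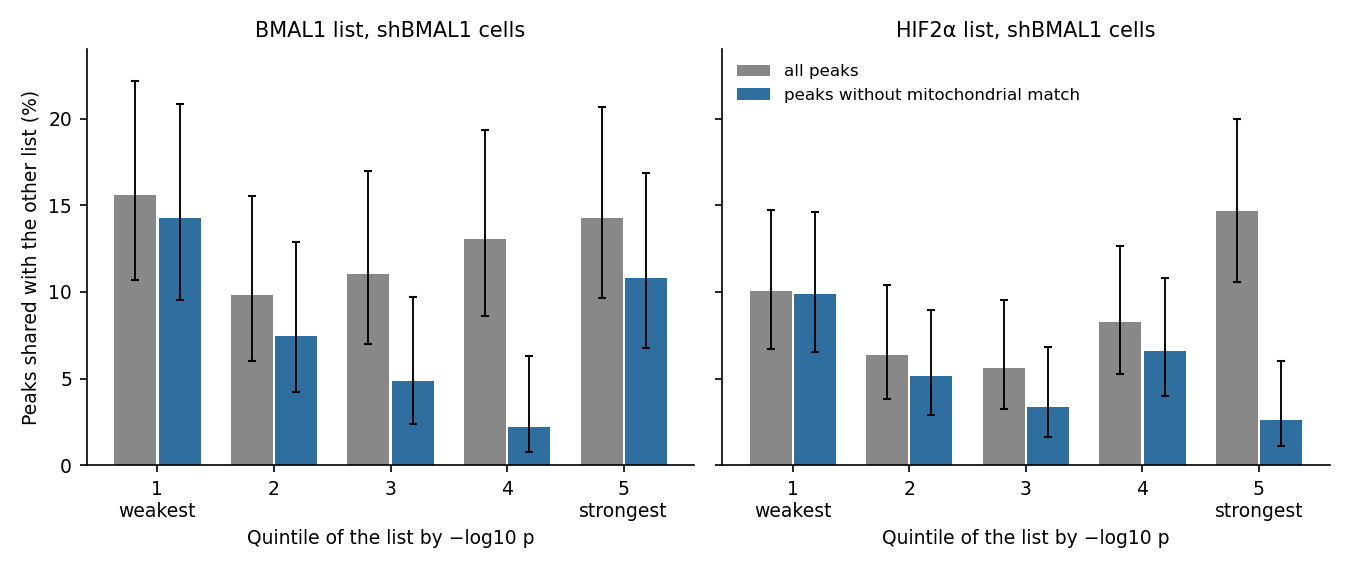
Share of peaks of each shBMAL1 list (percent) that overlapped a peak of the other list, by quintiles of the list ordered by −log10 p. Grey bars take all peaks, blue bars only peaks without a match to mitochondrial DNA, and the lines are 95% Wilson intervals. In the strongest quintile of the HIF2α list the share went from 14.7% to 2.63% when matching peaks were set aside.

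By position, 49 of the 98 shared sites lay in promoters (50%, 40.3 to 59.7), taken as 1000 bp before to 100 bp after any annotated start site, non-coding transcripts included. BMAL1-only peaks were in promoters far more often, 515 of 670 (76.9%), and HIF2α-only peaks less often, 225 of 991 (22.7%). The difference was −26.9 percentage points (95% Newcombe interval −37.0 to −16.6) against BMAL1-only peaks and 27.3 points (17.2 to 37.3) against HIF2α-only peaks. In all peaks, 73.4% of the BMAL1 list and 25.2% of the HIF2α list were promoter peaks, so the shared sites as a whole stood between the lists (63.7% and 26.9% in the shControl lists). For the shared sites whose sequence did not match mitochondrial DNA, the promoter share was 38 of 58. The difference was −11.3 points (−24.6 to 0.0728) against BMAL1-only peaks, an interval that just covers 0, and 42.8 points (29.7 to 54.0) against HIF2α-only peaks. With matching peaks removed from every list, the difference against BMAL1-only peaks was −11.6 points (−24.8 to −0.168), an interval that just leaves out 0. By their summits 42 shared sites were in introns, 43 between genes, 7 in UTRs and 6 in exons of non-coding transcripts.

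The shared sites divided by whether their DNA resembles the mitochondrial genome. Nuclear copies of mitochondrial DNA are old insertions scattered over the chromosomes, and short reads from the abundant mitochondrial genome can align to them. A match (blastn, e-value up to 1e-05) to the mitochondrial genome of 16569 bp was found in 40 of 98 shared sites (40.8%, 31.6 to 50.7), for the same 40 sites whether the BMAL1 or the HIF2α peak was searched. Among BMAL1-only peaks 6 of 670 matched (0.896%) and among HIF2α-only peaks 13 of 991 (1.31%), a difference of 39.9 points (30.7 to 49.8) and 39.5 points (30.3 to 49.4). Over the whole lists 5.99% of BMAL1 and 4.87% of HIF2α peaks matched. Sequences 2000 bp to either side matched in 17 of 80 cases (21.3%, 13.7 to 31.4) beside the 40 matching sites and in 0 of 116 beside the other 58, against 0.149% beside BMAL1-only and 0.605% beside HIF2α-only peaks. Seen the other way, 40 of the 46 matching BMAL1 peaks (87.0%, 74.3 to 93.9) were shared with HIF2α, against 58 of 722 without a match (8.03%, 6.27 to 10.2). For HIF2α peaks the numbers were 40 of 53 (75.5%) and 58 of 1036 (5.60%). Whether reads of mitochondrial origin contributed to these peaks was not tested.

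**Figure D2:**
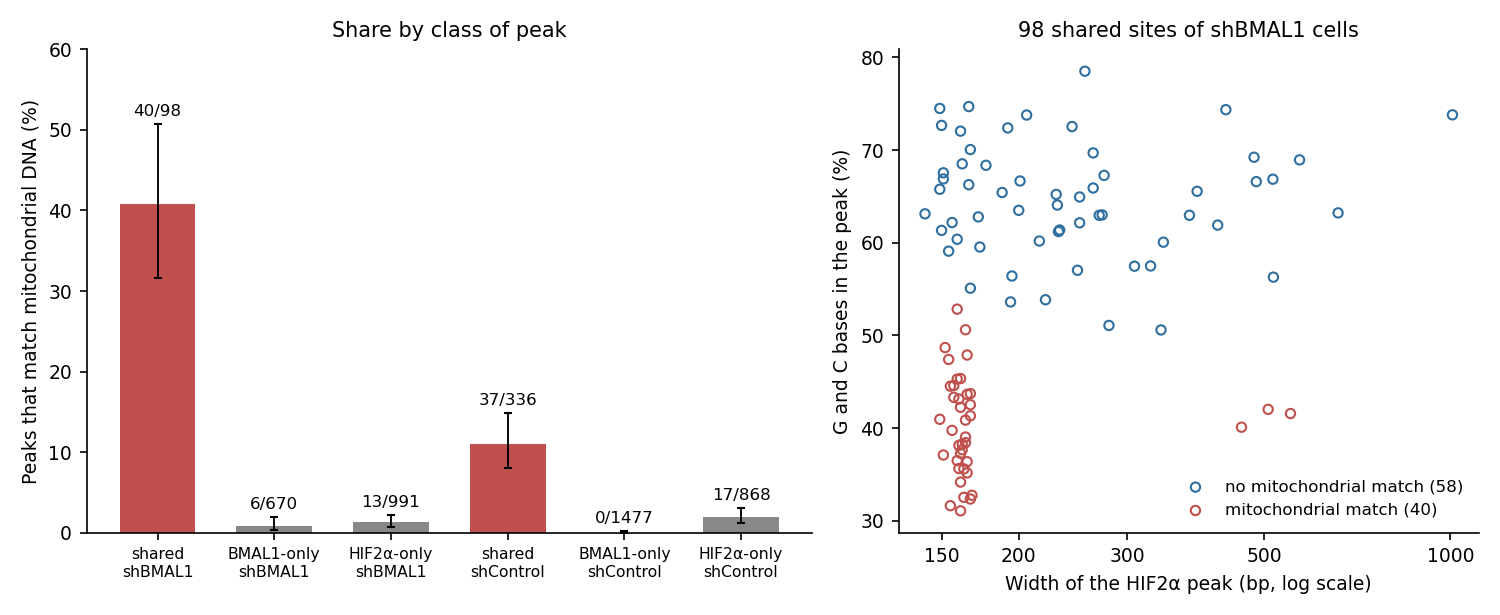
Left, share of peaks in each class that matched mitochondrial DNA (percent, with 95% Wilson intervals and counts above the bars), where shared sites are counted by their HIF2α peaks. Right, width (bp, log scale) against the percentage of G and C bases for the 98 shared sites of shBMAL1 cells. Matching sites, in red, were all but 3 between 140 and 170 bp wide and poorer in G and C than the other sites.

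The matches were mostly short, 30 to 524 bp with a median of 132.5 bp, and varied in identity, from 74.2% to 100% with a median of 91.1%. With a match of at least 100 bp required, 24 of 98 shared sites remained, against 5 of 670 and 9 of 991, and with at least 90% identity as well, 5 shared sites against 0 and 0. The matched stretches were spread over the mitochondrial genome, most often in the ribosomal RNA genes MT-RNR1 (11 sites) and MT-RNR2 (10 sites) and in MT-ND2 (5 sites), a subunit of respiratory complex I.

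The 40 matching sites differed from the other 58 in further measures. Their HIF2α peaks had a median width of 161.5 bp, 37 of the 40 between 140 and 170 bp, whereas the others had a median of 230.5 bp and 16 of 58 in that range. Their median content of G and C was 40.5%, against 64.5%, a measure that the matched sequence itself largely sets. In matching sites the summits of the pair were separated by a median of 7.5 bp (3 to 19), and in the others by 45 bp (33 to 72). Only 11 of 40 were in promoters (27.5%, 16.1 to 42.8) against 38 of 58 (65.5%, 52.7 to 76.4), a difference of 38.0 points (18.0 to 53.8), and their median distance to the nearest protein-coding start was 89198.5 bp against 378 bp.

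By p, matching sites ranked high in the HIF2α list, with a median percentile of 91.6 (83.1 to 94.4) and 27 of 40 in its strongest quintile. In the BMAL1 list they ranked less high, at 64.0 (51.9 to 71.3). Their fold enrichment over local background was 2.56 to 11.8 for HIF2α with a median of 5.67, below the 7.40 of the whole list. For BMAL1 their median fold was 8.13, below the 10.5 of its list. The other 58 sites had similar HIF2α folds, 2.47 to 13.6 with a median of 5.99. Ranks of the matching sites in the 2 lists ran together, with a Spearman correlation of 0.789 over the 40 sites, and for the other 58 sites the correlation was −0.04. These are descriptions across sites of the same pooled libraries, and peaks of similar width and base composition are not independent points. The other 58 sites ranked below the middle of both lists by the median, at a median percentile of 37.3 (20.1 to 48.0) for BMAL1 and 33.0 (21.8 to 55.9) for HIF2α. Just 7 of the 58 were in the upper part of both lists (percentile 50 or more), 14 only in that of BMAL1 and 16 only in that of HIF2α.

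**Figure D3:**
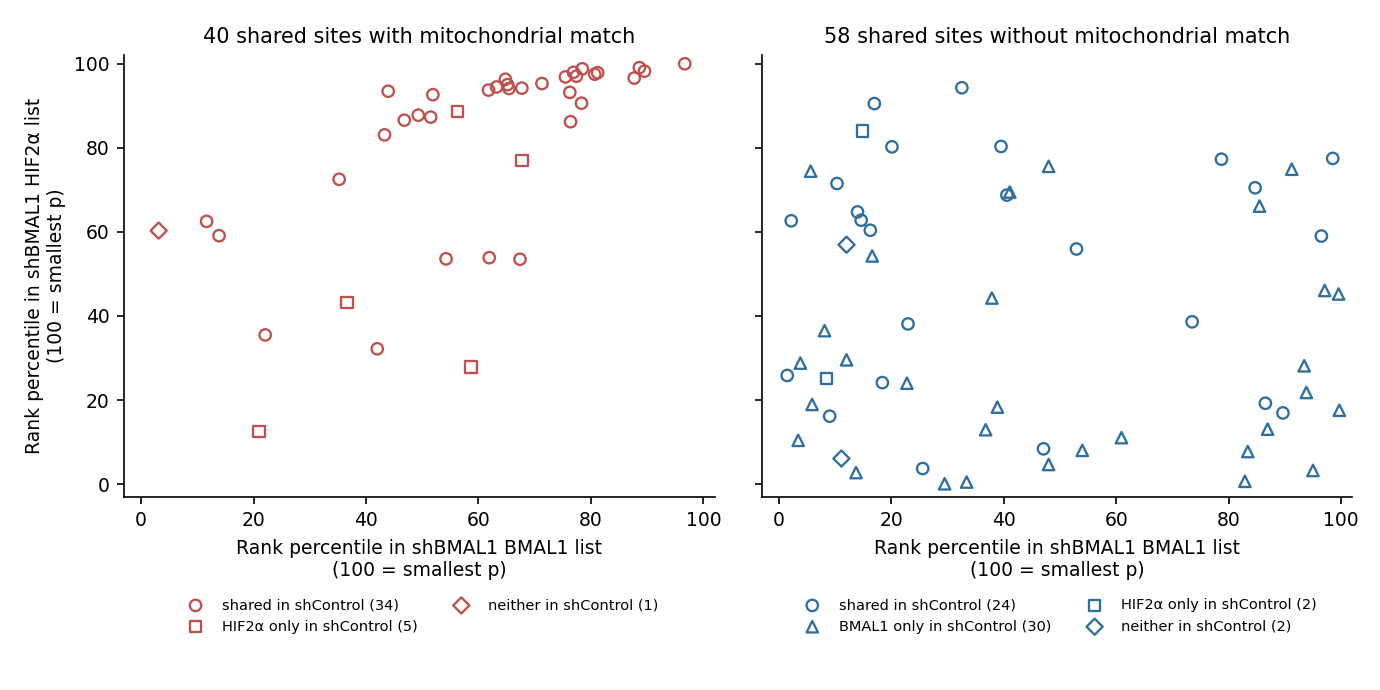
Rank percentile of each shared site in the shBMAL1 BMAL1 list (x axis) and in the shBMAL1 HIF2α list (y axis), 100 being the smallest p. Red, 40 sites with a mitochondrial match, and blue, 58 sites without. Symbols give the state of the site in shControl cells. Matching sites crowd toward the top of the HIF2α list, and sites called only for BMAL1 in shControl cells (triangles) sit mostly in its lower part. By definition the triangles had no HIF2α call in shControl cells.

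The 10 shared sites that ranked best over both lists were, with the exception of the TMEM141 promoter, all matching sites. The first was the site near PCDH11Y, which encodes a protocadherin, at rank 26 of 768 for BMAL1 and rank 1 of 1089 for HIF2α, with folds of 4.14 and 4.76. Its match to MT-RNR1 covered 63 bp at 100% identity. In shControl cells the same site was called for both proteins, at ranks 37 of 1812 and 12 of 1204. Next came the sites nearest to FSTL5 (ranks 81 and 20), SLC47A1, a drug and toxin exporter of the kidney (88 and 11), FAM168A (95 and 38), KCNJ3, a potassium channel (145 and 24), AMY2A, pancreatic amylase (149 and 28), LARP1B (166 and 14), ARHGEF28 (178 and 23) and PLCB4, a phospholipase C (174 and 33). All 9 of these matching sites were shared in shControl cells too. Several lay far from the gene whose start was nearest, 565408 bp for KCNJ3 and 655358 bp for PCDH11Y, so these gene names give a position only. The TMEM141 promoter, 238 bp before the start, ranked 12 for BMAL1 with a fold of 44.3 and 246 for HIF2α with a fold of 6.05.

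The strongest peaks outside the overlap belonged to different loci. For BMAL1 they were the copies of the ASMTL 5′ region on the X and Y chromosomes, at ranks 2 and 1, and a site nearest to NSUN5 at rank 5. For HIF2α they were 3 sites within EPAS1, the gene of HIF2α itself, at ranks 2, 3 and 4, with folds of 7.17 to 7.32. Further HIF2α peaks at EPAS1 and ARNT, none shared with BMAL1, included ranks from 5 to 13 and from 16 to 120, respectively. Whether the signal at EPAS1 and ARNT reflected binding was not tested.

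Of the 98 shared sites, 58 were already shared in shControl cells (59.2%, 49.3 to 68.4), 30 had been called for BMAL1 only (30.6%, 22.4 to 40.3), 7 for HIF2α only (7.14%) and 3 for neither (3.06%). None was called for both at peaks that lay apart. For comparison, 18.5% of all shBMAL1 HIF2α peaks were shared in shControl cells, 5.79% were BMAL1 only, 45.5% HIF2α only and 30.3% neither, and for all shBMAL1 BMAL1 peaks the shares were 9.77%, 81.5%, 1.04% and 7.68%. These states were mixed differently by sequence type. Of the 40 matching sites, 34 were shared in shControl cells, 5 were HIF2α only, 1 was neither and 0 were BMAL1 only. Of the 58 others, 24 were shared (41.4%, 29.6 to 54.2), 30 were BMAL1 only (51.7%, 39.2 to 64.1), 2 were HIF2α only and 2 were neither.

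**Figure D4:**
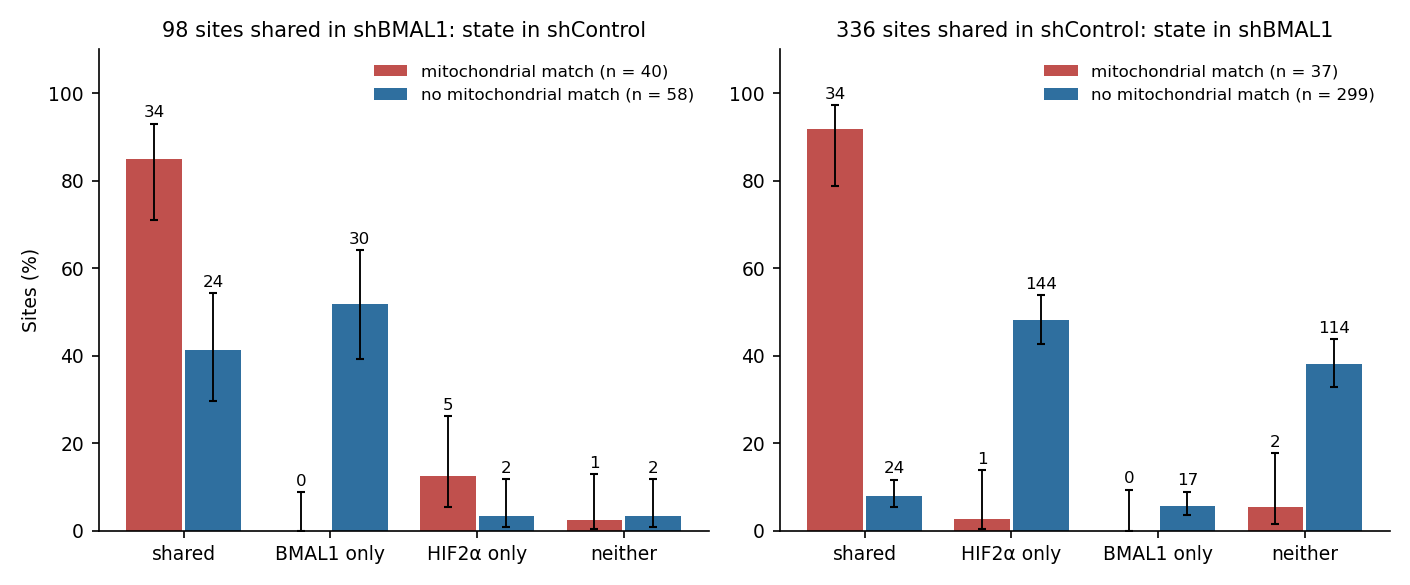
Left, state in shControl cells of the 98 sites shared in shBMAL1 cells. Right, state in shBMAL1 cells of the 336 sites shared in shControl cells, counted by HIF2α peaks. Bars are percentages of the sites with (red) or without (blue) a mitochondrial match, with 95% Wilson intervals and counts. Of matching sites 34 of 37 stayed shared, and of the others 24 of 299.

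The 24 sites without a match that were shared in both conditions included the clock promoters PER1 and PER2 and the glycolytic regulator PFKFB4. They also included sites at ESRP2, a splicing regulator, and CLDN4, a tight junction protein. Among the genes named here and further on, ESRP2, CLDN4, INSIG1, SEPTIN9, DOP1B, RELL1, CORO1C, MYH9, TK1, KCTD3, PCGF3, THAP8 and DNAJC16 fall outside the naming rule and were chosen after their values were seen. In the BMAL1 list 20 of the 24 had a lower percentile in shBMAL1 than in shControl cells, with medians of 29.1 and 70.1. In the HIF2α list 12 of 24 did, with medians of 61.5 and 48.9. Percentiles are relative to lists of different length and number of libraries and are no measure of signal.

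At PER1, a repressor of the clock, the shared site lay 237 bp before the start on chromosome 17 (8059751 to 8060170). Its BMAL1 peak had a fold of 26.9 and rank 89 of 1812 in shControl cells, and a fold of 6.00 and rank 627 of 768 in shBMAL1 cells. Its HIF2α peak had folds of 3.75 and 4.46, at ranks 1180 of 1204 and 826.5 of 1089. At PER2, another clock repressor, the site lay 82 bp before the start. BMAL1 had a fold of 13.4 at rank 168 in shControl and of 3.91 at rank 689 in shBMAL1 cells. In the same order, HIF2α had folds of 4.95 at rank 262 and 4.64 at rank 311. The 200-bp window at the HIF2α summit of the PER2 site held neither an E-box nor an HRE core.

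Other shared sites ranked higher in the HIF2α list than in the BMAL1 list. At ESRP2, the site 149 bp after the start had a HIF2α fold of 13.6 at rank 63, the largest HIF2α fold among the shared sites, and a BMAL1 fold of 8.57 at rank 518.5. At PFKFB4, which makes the activator of phosphofructokinase, the site 172 bp before the start had a HIF2α fold of 9.57 at rank 216 and a BMAL1 fold of 6.69 at rank 614, and in shControl cells 10.6 at rank 133 and 8.59 at rank 654. The site nearest to SEPTIN9, which encodes a cytoskeletal GTPase, had a HIF2α fold of 12.9 at rank 104 and a BMAL1 fold of 7.49 at rank 638. By fold the order was the other way round at the site nearest to INSIG1, a regulator of sterol synthesis, with 9.18 for HIF2α at rank 215 and 9.85 for BMAL1 at rank 465, and at CLDN4, with 8.20 at rank 341 and 10.5 at rank 457.

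The 30 sites that were BMAL1 only in shControl cells were spread over the whole BMAL1 list and low in the HIF2α list. They were picked for having no HIF2α call in shControl cells, so a low HIF2α rank may follow from that choice. How other HIF2α peaks without such a call ranked was not compared. Of the 30 sites, 20 were in promoters and 23 held a GC box. Both counts are near the background of the whole BMAL1 list, with 73.4% in promoters and a GC box at 76.9% of its BMAL1 summits. In the BMAL1 list 11 of the 30 were in the strongest quintile. For HIF2α, 24 of 30 were below percentile 50 and 0 were in the strongest quintile, with a range of 0.0918 to 75.6 and a median of 20.4. The promoter of DOP1B ranked 3 for BMAL1 with a fold of 48.1 and 898 of 1089 for HIF2α with a fold of 3.01. FARP2, an exchange factor of the cytoskeleton, ranked 4 and 597, with folds of 58.4 and 4.18. However, the sequence of its peak was placed at least 5 times in the genome, at 95% identity or more over at least 90% of the peak. Reads may therefore have been placed at any copy. SPAG4 ranked 23 and 588, RELL1 51 and 783, and CORO1C, an actin-binding coronin, 39 and 1054. The promoter of MYH9, nonmuscle myosin, ranked 132 and 1082, and that of TK1, thymidine kinase, 512 and 1084, both close to the threshold of the HIF2α list. Better placed in both lists were PRSS8, a protease of epithelial membranes (68 and 274), and the 5′ end of EOLA1 on the X chromosome (112 and 369.5), where the summits were 1066 bp apart. TRIO had 2 such sites, at ranks 400 and 266.5 and at ranks 725 and 279, both in an intron.

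The remaining states were few. Of the 7 sites that had been HIF2α only, those near DYNC2H1, TENM2, AGBL4, RGMB and KCTD3 matched mitochondrial DNA, and the others were 32155 bp upstream of NOTCH1, the receptor of the Notch pathway, with ranks of 654 for BMAL1 and 175 for HIF2α, and 51321 bp downstream of the start of PFKFB3, with ranks of 703.5 and 816.5. The 3 sites called for neither protein before were the promoter of CARD10 (676 and 469.5), the promoter of the corepressor TLE4 (683 and 1023) and a matching site in an intron of ERBB4, a receptor tyrosine kinase (744.5 and 433). All 3 were in the weakest quintile of the BMAL1 list. TLE4, TRIO and TMEM18 were each nearest to more than 1 shared site. TMEM18 had shared sites at its promoter (ranks 164 and 248) and 63078 bp upstream (27.5 and 447), both shared in shControl cells as well.

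Seen from shControl cells, 58 of the 336 shared sites were still shared after BMAL1 depletion (17.3%, 13.6 to 21.7), 145 were called for HIF2α only, 17 for BMAL1 only and 116 for neither. With every list limited to as many peaks as the shortest, 32 of 85 were still shared (37.6%), and with peaks of −log10 p of at least 20 in every list, 27 of 99 (27.3%). With a mitochondrial match 34 of 37 were still shared (91.9%, 78.7 to 97.2), 1 was HIF2α only and 2 were neither. Without one, 24 of 299 were still shared (8.03%, 5.45 to 11.7), 144 were HIF2α only, 17 BMAL1 only and 114 neither. The 336 include 24 sites within EPAS1 and ARNT, of which 0 were still shared, 22 were HIF2α only and 2 neither. Outside those genes the share without a match was 24 of 275 (8.73%). In shControl cells a match was found at 37 of the 336 shared sites (11.0%, 8.10 to 14.8), 0 of 1477 BMAL1-only peaks (Wilson upper bound 0.259%), and 17 of 868 HIF2α-only peaks (1.96%), over backgrounds of 2.04% of all shControl BMAL1 and 4.49% of all shControl HIF2α peaks.

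By gene, 722 protein-coding genes were nearest to a BMAL1 peak and 863 to a HIF2α peak of shBMAL1 cells, and 131 were nearest to both, 37 of them without a shared site. The 98 shared sites were nearest to 95 genes. Of 18 clock genes, 5 had a BMAL1 peak in shBMAL1 cells (PER1, PER2, PER3, NR1D1 and TEF), 5 had a HIF2α peak and 3 had both, and PER1 and PER2 had a shared site. By the same rule, 4.01% of the 20149 protein-coding genes of the annotation had a BMAL1 peak, 4.71% a HIF2α peak and 0.506% a shared site. In shControl cells 13 clock genes had a BMAL1 peak, 3 a HIF2α peak and 3 a shared site, against 8.99%, 5.32% and 1.59% of protein-coding genes. All 5 BMAL1 clock peaks were in the weakest quintile of the shBMAL1 list, at ranks 627 to 753 of 768. TEF had its BMAL1 and HIF2α peaks at separate places, and BHLHE40, a repressor that is also hypoxia-inducible, had 4 HIF2α peaks and no BMAL1 peak.

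Of 30 hypoxia genes, 21 had a HIF2α peak and 2 a BMAL1 peak in shBMAL1 cells, and those 2, PFKFB3 and PFKFB4, were the ones with a shared site. In shControl cells 23 had a HIF2α peak, 9 a BMAL1 peak and 9 a shared site. HIF2α peaks without BMAL1 included those at TGFA, a growth factor (rank 15, fold 29.8), and at ALDOA, of glycolysis (rank 21, fold 20.6). Of 12 bHLH-PAS genes, 4 had a HIF2α peak, 0 a BMAL1 peak and 0 a shared site, and of 12 AP-1 genes 2, 0 and 0. Of 516 zinc finger genes named ZNF, 29 had a BMAL1 peak, 13 a HIF2α peak and 1 a shared site, near ZNF479 and with a mitochondrial match. Of 68 histone genes 0 had a BMAL1 peak and 1 a HIF2α peak, and of 180 genes with the prefixes of ribosomal proteins 4 had a BMAL1 peak, 5 a HIF2α peak and 1 a shared site, at RPS6KA2, which is a kinase and no ribosomal protein. With 0.506% of all genes holding a shared site, counts of 0 or 1 in these lists are near the background and say nothing about them.

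Motifs were counted on either strand in 200-bp windows at the HIF2α summit, or at the BMAL1 summit for BMAL1-only peaks. They were the E-box CACGTG, the HRE core ACGTG or GCGTG (every E-box includes an HRE core), the AP-1 site TGACTCA or TGAGTCA, the GC box GGGCGG, the CCAAT box, and the ETS site CCGGAAG. In windows of the same length centred on all 78500 protein-coding start sites with determined sequence, an E-box occurred in 5.15%, an HRE core in 40.9%, an AP-1 site in 2.45% and a GC box in 43.4%. The 40 matching sites held few of these motifs, with an E-box in 1, an HRE core in 7 (17.5%, 8.75 to 32.0), and an AP-1 site or a GC box in 0 (Wilson upper bound 8.76%). The CCAAT box was present in 15.

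The 58 sites without a match held an HRE core in 36 (62.1%, 49.2 to 73.4), a share between 56.6% of 668 BMAL1-only and 72.0% of 991 HIF2α-only windows, and its difference from each covered 0 (5.48 points, −7.91 to 17.5, and −9.98 points, −23.1 to 1.75). A GC box was present in 39 (67.2%, 54.4 to 77.9), against 82.3% of BMAL1-only and 13.4% of HIF2α-only windows. An AP-1 site was present in 10 (17.2%, 9.64 to 28.9), against 4.79% of BMAL1-only windows, a difference of 12.5 points (4.62 to 24.2), and against 28.2% of HIF2α-only windows, a difference of −10.9 points (−19.0 to 1.07). The E-box was present in 7 (12.1%, 5.97 to 22.9), against 6.14% and 6.05%, and these differences, 5.93 points (−0.51 to 16.9) and 6.01 points (−0.31 to 16.9), covered 0. At the BMAL1 summits of the same 58 sites, an E-box was present in 5 (8.62%, 3.74 to 18.6). An HRE core was present there in 34 (58.6%, 45.8 to 70.4). Over the whole BMAL1 list an E-box was found in 12.9% of shControl and 6.01% of shBMAL1 windows. Of the 7 E-box sites, 5 (RELL1, PCGF3, TRIO, THAP8 and DNAJC16) were BMAL1 only in shControl cells, PER1 was shared and TLE4 was neither.

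**Figure D5:**
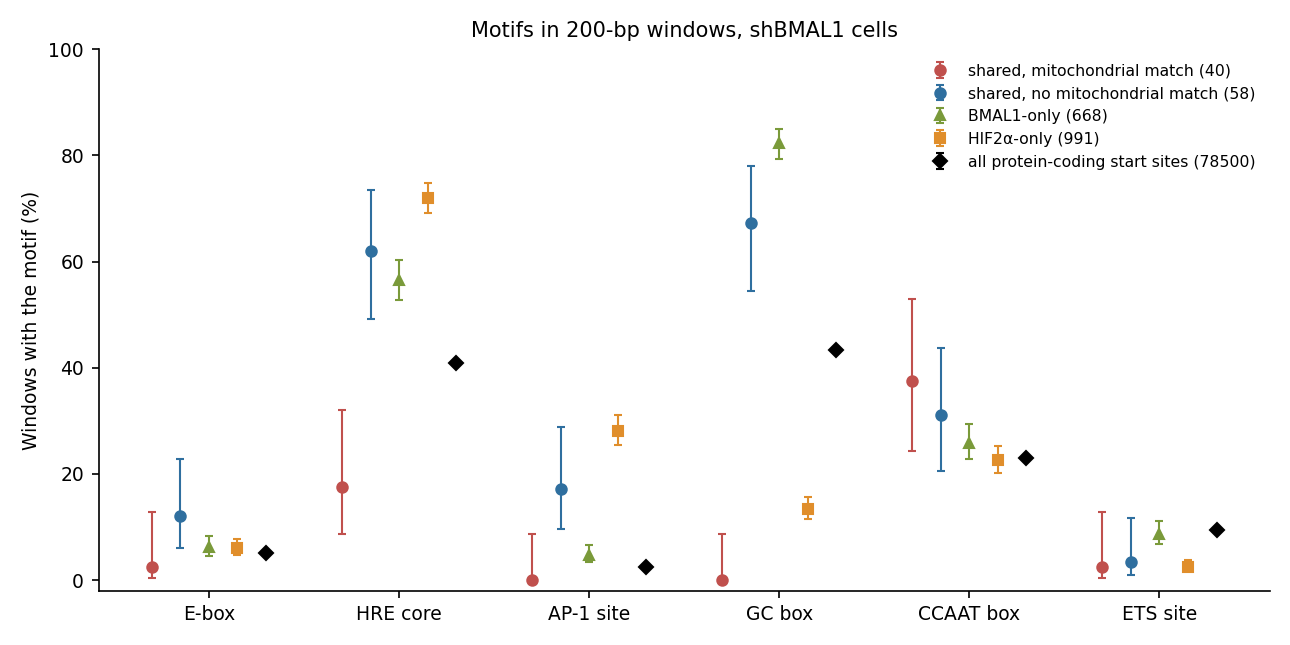
Share of 200-bp windows with each motif (percent) for classes of peaks in shBMAL1 cells and for all protein-coding start sites, with 95% Wilson intervals and the number of windows in the key. The shared sites without a mitochondrial match (blue) lie between BMAL1-only (green) and HIF2α-only (orange) peaks for the HRE core, the AP-1 site and the GC box.

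Promoter and distal shared sites without a match differed more in GC box, CCAAT box and AP-1 site than in the HRE core. The lists as a whole were not split by position, so these counts are not shown to be particular to shared sites. Of the 38 in promoters, 33 held a GC box, 17 a CCAAT box, 25 an HRE core and 2 an AP-1 site. Of the 20 elsewhere, 6 held a GC box, 1 a CCAAT box, 11 an HRE core and 8 an AP-1 site, among them those nearest to INSIG1, CLDN4 and PFKFB3. A match of these letters describes the window and does not show which protein was bound.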

How the data were processed

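CUT&RUN peak lists were taken as deposited, 1 list pooled over the libraries of each antibody and shRNA group, with 100000 cells per reaction. The labels call the libraries biological replicates and the study's reporting form calls them technical, and a further shBMAL1 BMAL1 library with few reads was left out by the authors. The authors aligned reads to hg19 with Bowtie2 2.5.3, removed duplicates, called peaks with MACS2 2.2.9.1 and removed blacklisted regions (bedtools 2.31.1). Whether IgG served as the control is not given in the sources used here. The deposited columns are a display score, the fold enrichment (a ratio over local background), the −log10 p and −log10 q of MACS2, and the summit offset. No column holds counts, so the depth behind each peak is unknown, and a site that is not called may still hold signal.

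Overlap was at least 1 bp. Genes, promoters and sequence came from GRCh37 with GENCODE annotation (version 44 lifted to that build), read with pysam 0.24.0, and a peak was placed by its midpoint. Peaks were compared with the mitochondrial genome by blastn 2.17.0, an analysis chosen after the data were seen. On planted sequences it found 100 of 100 mitochondrial fragments and called 0 of 300 random ones. The planted fragments shared a single length and expected divergence, and the random sequences used all bases equally. This check therefore does not cover the range of lengths and identities of the real matches, nor real genomic background. Shares carry Wilson, differences Newcombe and medians order-statistic intervals, all at 95%, over peaks. Because every group is 1 pooled list, no p-value was computed. Named were the 10 shared sites of best mean rank, the 5 best in each shControl state, members of the gene lists, genes with more than 1 shared site and the 3 strongest unshared peaks per list, with further names, listed in the text, chosen after their values were seen. A gene had a peak when its start was nearest or the peak lay inside it. Members, lists and rules were chosen with earlier results of these data known. Alternatives covered overlap, peak thresholds, list length, ranking, promoter and motif windows, start sites and chromosomes.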

Additional observations from a re-analysis of the deposited data

How the results depend on the processing

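Of 76 alternatives over 11 results, 52 kept the value within its interval and 24 moved it. A direction could turn only for the promoter differences, and 0 of their alternatives turned it. Without peaks that match mitochondrial DNA, a choice made after seeing the data, the shared share was 8.03% of BMAL1 and 5.60% of HIF2α peaks, the promoter difference −11.6 points against BMAL1-only and 43.2 against HIF2α-only peaks, the median percentile 37.9 and 33.7, the share already shared 41.4%, the share still shared 8.03% and the share with an HRE core 62.1%. With a −log10 p of at least 20, the BMAL1 share was 7.17%, the promoter differences −42.4 and 16.1 points, the HIF2α percentile 83.7 and the share still shared 27.3%. Lists cut to equal length gave a BMAL1 share of 8.85% and 37.6% still shared, and a −log10 q of at least 10 gave a BMAL1 share of 9.74%. Summits within 100 bp gave shares of 10.3% and 7.25%. Ranking by fold gave percentiles of 34.9 for BMAL1 and 27.2 for HIF2α. Motif windows of 100 bp gave 4.08% for the E-box, 28.6% for the HRE core and 4.08% for the AP-1 site. The cause of these shifts was not tested. No paired analysis was possible because each group is 1 pooled list, and for the same reason no library could be left out. Peaks are calls at a threshold, so weak sites near it may enter or leave a list with depth, which the lists do not give.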
